A study of Allium sativum with 18 samples.

Results

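The genes described here were the garlic homologs of GI (Asa3G02483.1) and FKF (Asa2G00085.1), 2 of the 57561 genes in the deposited expression table. They were selected by gene ID, as the genes that the study's model of photoperiod signalling labels GI and FKF. The study had picked the genes of that model from those that differed between bulb stages in at least 2 of the 3 varieties, in these same libraries. The stage differences thus chose both genes and are given below as a description without a test. The data were 18 RNA-sequencing libraries of untreated field-grown garlic (Allium sativum) from 3 varieties. Chalingzipisuan, Ershuizao and Yuanjiangyangsuan each gave 3 libraries of bulbs before enlargement, collected in February, and 3 of bulbs under enlarging growth, collected in March, with 1 individual per library. All plants came from a single farm and were planted in the preceding October, so that stage and month of collection cannot be told apart. In the labels the tissue is leaf, whereas the stage named there and the study's methods are those of bulbs, and bulbs are written here. The tissue was not checked against marker genes, since no annotation that pairs gene IDs with names was used here.

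GI (GIGANTEA) is a large plant protein under the control of the circadian clock, and FKF1 is an F-box protein that senses blue light through a LOV domain. In Arabidopsis, GI and FKF1 bind each other in the light and mark CDF proteins, repressors of CONSTANS and FT, for degradation, so that FT is switched on in long days. In potato, homologs of both proteins interact with a CDF factor that controls tuber formation, and onion forms bulbs in response to long days. Transcripts of GI and FKF1 rise and fall over the day in Arabidopsis. The hour at which the garlic bulbs were collected is not given in the sources used here, and its part in the levels below was not tested.

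Each library held 10340511 to 14117986 fragments on genes, as recovered from the deposited FPKM values (fragments per unit of gene length, scaled to the fragments mapped in a library). These values let transcript abundance be compared between genes of different length. In the principal component analysis of all libraries, enlarging replicate 3 of Chalingzipisuan lay on the second component (28.2% of the variance) at -52.1, within the range of the libraries before enlargement (-128.0 to -42.3) and outside that of the other enlarging libraries (2.88 to 151). Differences of GI and FKF that rest on that library are given with and without it for most comparisons. Shares of genes called in comparisons with Yuanjiangyangsuan are given only with it. So are shares without overlap between the stages of Chalingzipisuan, and stage differences and correlations of other genes. Both genes passed the filter (0.5 FPKM or more in 3 or more of the 18 libraries), as did 33681 genes in all, and both reached 0.5 in all 18 libraries.

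The GI homolog was the more abundant gene of the pair in every library. Its recovered length was 3762 bases, and 242 to 1490 fragments per library stood behind its FPKM values. Across the 18 libraries its FPKM value ranged 6.03-fold, from 4.50 to 27.1, and it lay above 48.5% to 82.4% of the genes detected in a library (median 64.4%).

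In Ershuizao the FPKM values of the GI homolog were 27.1, 21.0 and 24.0 before enlargement (24.0 ± 3.05, mean ± SD, n = 3) and 9.10, 8.22 and 14.1 under enlarging growth (10.5 ± 3.18). In Chalingzipisuan they were 4.91, 4.50 and 6.17 before enlargement (5.19 ± 0.871) and 16.6, 14.1 and 9.26 under enlarging growth (13.3 ± 3.75). In Yuanjiangyangsuan they were 10.6, 11.0 and 10.1 before enlargement (10.6 ± 0.406) and 12.1, 15.1 and 10.6 under enlarging growth (12.6 ± 2.30). Every Ershuizao library before enlargement therefore stood above all other libraries, and every Chalingzipisuan library before enlargement stood below all others. The 4 remaining groups, in falling order of their means Chalingzipisuan enlarging, Yuanjiangyangsuan enlarging, Yuanjiangyangsuan before and Ershuizao enlarging, each overlapped with the next.

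The FKF homolog, with a recovered length of 1869 bases, was a gene of low abundance. Only 14 to 191 fragments per library stood behind its values, which ranged 12.6-fold from 0.557 to 7.03 FPKM and lay above 16.2% to 57.5% of the genes detected in a library (median 31.2%). At its lowest, in enlarging replicate 2 of Chalingzipisuan, 14 fragments gave an exact 95% Poisson interval of 0.305 to 0.935 FPKM, which covers counting error only.

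In Ershuizao the FPKM values of the FKF homolog were 7.03, 4.22 and 5.13 before enlargement (5.46 ± 1.44, mean ± SD, n = 3) and 0.871, 0.981 and 1.62 under enlarging growth (1.16 ± 0.406). In Chalingzipisuan they were 0.796, 1.16 and 0.712 before enlargement (0.889 ± 0.238) and 1.55, 0.557 and 1.68 under enlarging growth (1.26 ± 0.613). In Yuanjiangyangsuan they were 2.75, 2.48 and 1.84 before enlargement (2.36 ± 0.467) and 4.34, 5.95 and 4.005 under enlarging growth (4.77 ± 1.04). The libraries fell into levels that did not overlap. Ershuizao before enlargement and Yuanjiangyangsuan enlarging overlapped at the top, Yuanjiangyangsuan before enlargement lay alone below them, and the enlarging groups of Chalingzipisuan and Ershuizao overlapped with each other and, at the bottom, with Chalingzipisuan before enlargement.

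**Figure D1:**
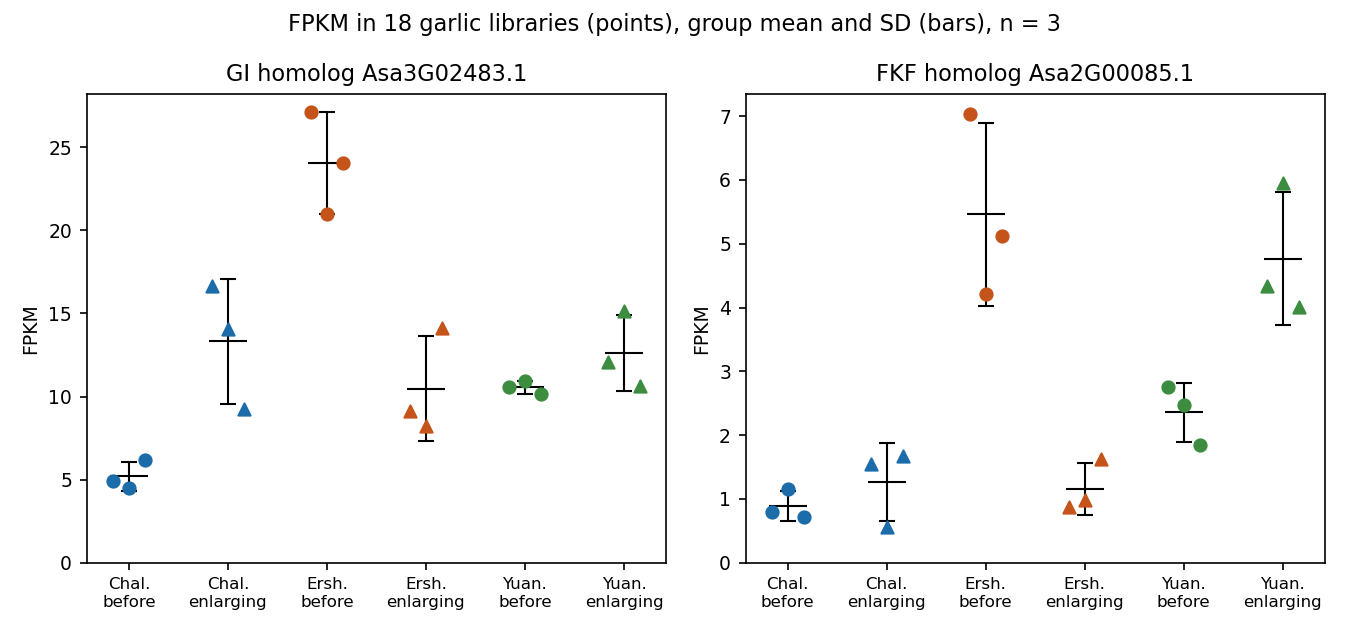
FPKM values of the GI homolog (left) and the FKF homolog (right) in 18 libraries, by variety (Chal., Chalingzipisuan; Ersh., Ershuizao; Yuan., Yuanjiangyangsuan) and stage. Points are libraries, and bars give the mean and SD of 3; both genes were highest on average in Ershuizao before enlargement (24.0 and 5.46 FPKM) and lowest in Chalingzipisuan before enlargement (5.19 and 0.889 FPKM).

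The scatter between individuals differed between groups. For the GI homolog, the variance between the 3 libraries of a group was from 0.767 times (Yuanjiangyangsuan before) to 54.5 times (Chalingzipisuan enlarging) that of fragment counting alone, and for the FKF homolog from 1.78 times (Chalingzipisuan before) to 9.89 times (Ershuizao before). Within groups the pooled SD of log2(FPKM + 0.5) was 0.28 for GI, and 41.5% of 4412 genes of similar level had a smaller one. For FKF it was 0.36, and 26.5% of 5158 such genes had a smaller one.

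The comparison between varieties was not used to choose the genes, although it rests on the same libraries as the comparison of stages that did. It was tested at each stage with limma on log2(FPKM + 0.5) over all 33681 genes, and a gene was called at a Benjamini-Hochberg adjusted p under 0.05. The intervals and p-values do not account for the choice of both genes from stage differences in these libraries. Folds of these tests are on the log2(FPKM + 0.5) scale, where the added 0.5 lowers the folds of genes with low values. The libraries were made from whole tissues, so that fewer cells that express a gene and less RNA of it per cell cannot be told apart.

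Before enlargement, both homologs differed between all 3 varieties, in the order Ershuizao, Yuanjiangyangsuan, Chalingzipisuan. The largest distance was between Ershuizao and Chalingzipisuan, where the 3 libraries of one variety did not overlap with those of the other for either gene. The share of all genes without overlap between varieties was not counted, so non-overlap of varieties here and below is a description only. The GI homolog was 4.32-fold higher in Ershuizao on the log2(FPKM + 0.5) scale (difference of 2.11, 95% interval 1.62 to 2.60, limma adjusted p = 0.000106). The FKF homolog was 4.25-fold higher on the same scale (difference of 2.09, 95% interval 1.44 to 2.73, limma adjusted p = 0.00173). Its mean FPKM was 5.46 in Ershuizao and only 0.889 in Chalingzipisuan, so the added 0.5 lowers its fold more than that of GI. With 0.1 added instead, the differences were 2.19 for GI and 2.49 for FKF. Few genes separated these 2 varieties, as 1.07% of all genes were called, 0.745% as higher in Ershuizao and 0.33% as lower. That count, of 362 genes, was 803 without Chalingzipisuan enlarging replicate 3, and 197 to 241 without any of Chalingzipisuan replicates 2 and 3 and Ershuizao replicates 1 and 3 before enlargement. By unadjusted p, GI ranked 49 and FKF 96 among the 33681 genes. These libraries are also part of the stage differences that chose both genes, so the ranks are a description only, and the adjusted p-values do not account for that choice.

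Yuanjiangyangsuan lay between the others before enlargement. Against Chalingzipisuan, where 29% of genes were called and 12.7% were called as higher in Yuanjiangyangsuan, the GI homolog was 1.96-fold higher (difference of 0.97, 95% interval 0.48 to 1.46, limma adjusted p = 0.00462) and the FKF homolog 2.06-fold higher (1.04, 0.40 to 1.68, limma adjusted p = 0.0165). Against Ershuizao, where 30.7% of genes were called and 17.3% were called as lower in Yuanjiangyangsuan, the GI homolog was 2.21-fold lower (difference of -1.14, 95% interval -1.64 to -0.65, limma adjusted p = 0.00126) and the FKF homolog 2.07-fold lower (-1.05, -1.69 to -0.40, limma adjusted p = 0.0152). Calls were therefore common in both comparisons with Yuanjiangyangsuan. The 2 calls of FKF did not survive the loss of some single libraries: against Chalingzipisuan the adjusted p was 0.0619 without Chalingzipisuan replicate 3, 0.0611 without Yuanjiangyangsuan replicate 1 and 0.0506 without Yuanjiangyangsuan replicate 2, and against Ershuizao it was 0.0751 without Ershuizao replicate 1 and 0.0651 without Yuanjiangyangsuan replicate 3.

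Under enlarging growth, only the FKF homolog was called, and only in the comparisons with Yuanjiangyangsuan. It was 3.10-fold higher there than in Chalingzipisuan (difference of 1.63, 95% interval 0.99 to 2.28, limma adjusted p = 0.000613), where 29.2% of genes were called, 12.3% as higher in Yuanjiangyangsuan and 16.9% as lower. It was 3.20-fold higher than in Ershuizao (1.68, 1.03 to 2.32, limma adjusted p = 0.00048), where 31.6% were called and 13.4% as higher in Yuanjiangyangsuan. In both comparisons the libraries did not overlap, and without Chalingzipisuan enlarging replicate 3 the first difference was 1.82 (limma adjusted p = 0.000565). Whether a difference between varieties changed from one stage to the other was not tested, since that contrast contains the difference of stages that chose the genes.

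No difference of the GI homolog between varieties passed the threshold under enlarging growth. The differences were -0.05 for Yuanjiangyangsuan minus Chalingzipisuan (95% interval -0.54 to 0.44, limma adjusted p = 0.905), 0.28 for Yuanjiangyangsuan minus Ershuizao (-0.21 to 0.77, adjusted p = 0.392) and -0.33 for Ershuizao minus Chalingzipisuan (-0.82 to 0.16, adjusted p = 0.727). The last comparison called 0.837% of genes (0.531% as higher in Ershuizao and 0.306% as lower), and in it the FKF homolog differed by -0.04 (95% interval -0.69 to 0.60, limma adjusted p = 1). Its count of 282 called genes was 627 without Chalingzipisuan enlarging replicate 3, 171 without enlarging replicate 2 of Chalingzipisuan, 170 without enlarging replicate 1 of Ershuizao and 39 with only the 6 libraries compared. Without Chalingzipisuan enlarging replicate 3, the differences of GI against Chalingzipisuan were -0.28 for Yuanjiangyangsuan and -0.56 for Ershuizao (limma adjusted p = 0.375 and 0.235).

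**Figure D2:**
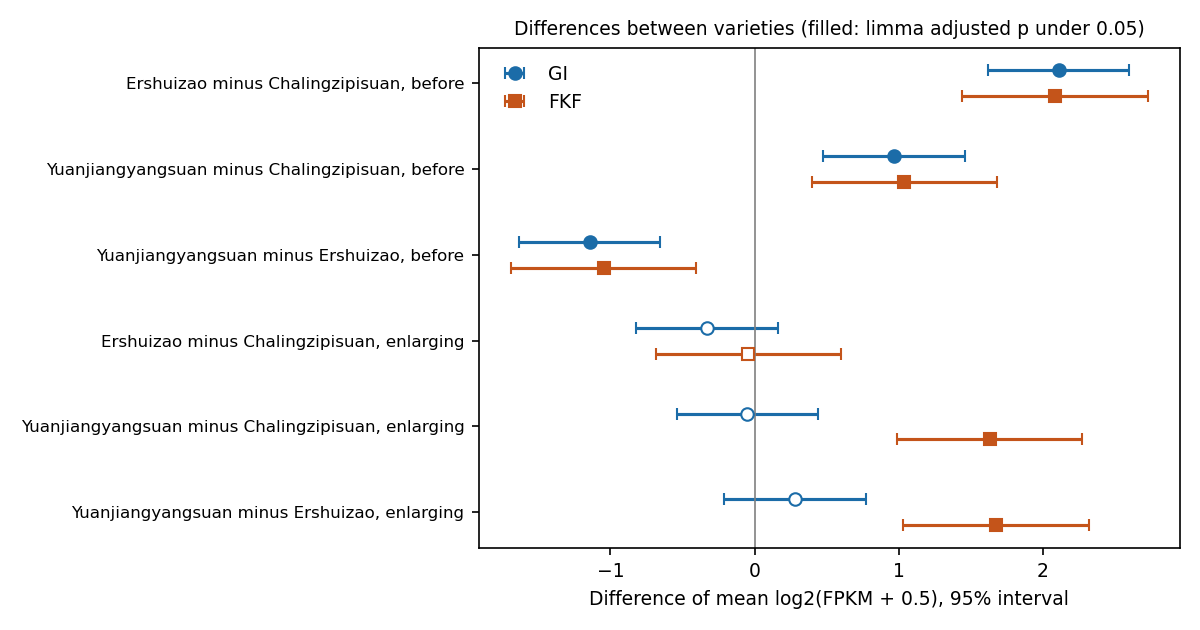
Differences between varieties in mean log2(FPKM + 0.5) with 95% intervals from limma, for the GI homolog (circles) and the FKF homolog (squares), 3 libraries per group. Filled symbols have an adjusted p under 0.05; before enlargement all 6 differences are filled, and under enlarging growth only those of FKF with Yuanjiangyangsuan, at 1.63 and 1.68.

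The values of both stages, which chose the genes, are described next. For the GI homolog, all 3 enlarging libraries of Chalingzipisuan were above all 3 libraries before enlargement, by 1.25 ± 0.27 in mean log2(FPKM + 0.5) (difference ± standard error) or 2.57-fold in mean FPKM, and 9.04% of genes were higher without overlap in that variety. Without enlarging replicate 3 the difference was 1.48. In Ershuizao all enlarging libraries were below those before enlargement, by -1.19 ± 0.25 or 2.29-fold in mean FPKM, where 16.7% of genes were lower without overlap. In Yuanjiangyangsuan the libraries of both stages overlapped (0.24 ± 0.15).

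The FKF homolog was lower under enlarging growth in Ershuizao, by -1.85 ± 0.28 on the log2(FPKM + 0.5) scale or 4.71-fold in mean FPKM, with no overlap between the stages (16.7% of genes were lower without overlap there). It was higher in Yuanjiangyangsuan, by 0.88 ± 0.21 or 2.02-fold in mean FPKM, again without overlap, where 20.5% of genes were higher without overlap. In Chalingzipisuan the stages overlapped (0.29 ± 0.36, and 0.10 without enlarging replicate 3). The GI pattern, higher without overlap in Chalingzipisuan and lower without overlap in Ershuizao, was found for 56 genes (0.166% of those passing the filter). The FKF pattern, higher in Yuanjiangyangsuan and lower in Ershuizao, was found for 184 genes (0.546%). Both homologs were chosen by their stage differences, so these shares do not measure how unusual the patterns are.

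The level of GI relative to FKF was then compared within each library. Before enlargement the ratio of the FPKM values ran from 3.88 to 8.66 in Chalingzipisuan, 3.85 to 4.98 in Ershuizao and 3.84 to 5.51 in Yuanjiangyangsuan. The ratio overlapped between the 3 varieties, with a mean ± SD of 6.24 ± 2.39, 4.505 ± 0.584 and 4.59 ± 0.85, respectively. Under enlarging growth it ran from 5.52 to 25.2 in Chalingzipisuan and from 8.38 to 10.5 in Ershuizao, and only from 2.54 to 2.79 in Yuanjiangyangsuan, below every other library of the series. The ratio of 25.2 was that of Chalingzipisuan replicate 2, which had only 14 fragments of FKF.

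As a difference of log2(FPKM + 0.5), the log2 ratio before enlargement was 2.04 ± 0.44 in Chalingzipisuan, 2.06 ± 0.17 in Ershuizao and 1.97 ± 0.21 in Yuanjiangyangsuan (mean ± SD, n = 3), and the exact permutation p-values of the 3 comparisons were 0.6 to 0.9 (two-sided). Without the added 0.5, the differences before enlargement were -0.40 for Ershuizao minus Chalingzipisuan and -0.38 for Yuanjiangyangsuan minus Chalingzipisuan. Under enlarging growth the log2 ratio with 0.5 added was 3.00 ± 0.81 in Chalingzipisuan, 2.72 ± 0.14 in Ershuizao and 1.32 ± 0.05 in Yuanjiangyangsuan. Yuanjiangyangsuan was lower than Chalingzipisuan by -1.68 (standard error 0.47) and lower than Ershuizao by -1.40 (standard error 0.09), each with all 3 libraries below those of the other variety and an exact permutation p of 0.1. That is the smallest p that 3 against 3 libraries can give, and it became 0.3 when adjusted over the 6 comparisons made. Between Ershuizao and Chalingzipisuan the enlarging libraries overlapped (difference of -0.29, exact permutation p = 0.7), and the direction depended on single libraries, as the difference was -0.71 without Chalingzipisuan enlarging replicate 3 and 0.10 without its replicate 2. For Yuanjiangyangsuan minus Chalingzipisuan it was -2.10 and -1.29, respectively.

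**Figure D3:**
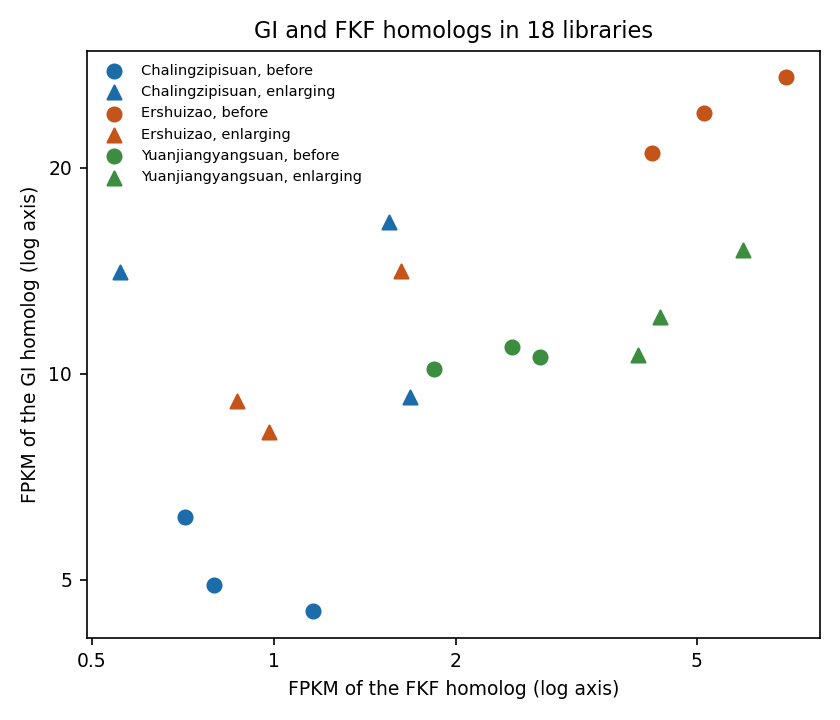
FPKM value of the GI homolog (vertical, log axis) against that of the FKF homolog (horizontal, log axis) in 18 libraries, with varieties in colours, libraries before enlargement as circles and enlarging ones as triangles. Ershuizao before enlargement is at the upper right, Chalingzipisuan before enlargement at the lower left, and the enlarging libraries of Yuanjiangyangsuan lie to the right of the other enlarging ones at similar GI, where the ratio is 2.54 to 2.79.

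Pearson's r of GI with FKF over the 18 libraries was 0.69 on the log2(FPKM + 0.5) scale, given as a description because the libraries share varieties and stages. FKF was the 40th gene by this measure among 33680, counted from the highest r with GI, and GI was the 54th for FKF. The stage differences that chose both genes enter this r, so the ranks too are a description only. Without Chalingzipisuan enlarging replicate 3 the r was also 0.69. Over the deviations of the libraries from their group means it was 0.24, and the ranks were 10451 and 6034. Most of the likeness was therefore between groups and little between individuals of a group.

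The genes whose pattern was nearest to GI were Asa3G04036.1 (r of 0.84) and Asa2G01629.1 (r of 0.82). The mean FPKM of Asa3G04036.1 was 1.34 in Chalingzipisuan and 8.96 in Ershuizao before enlargement. Those farthest from it were Asa4G01269.1 (r of -0.89), at 3.91 and 0.495 FPKM in the same groups, and Asa3G01471.1 (r of -0.77), at 3.58 and 0.0306 FPKM. The study's model labels Asa3G01471.1 a CDF homolog, and it was listed at 0 in 2 of the 3 Ershuizao libraries before enlargement and in 2 of the 3 Chalingzipisuan libraries under enlarging growth. Its mean FPKM was also low in Yuanjiangyangsuan (0.156 before enlargement, 0.124 under enlarging growth), where GI was intermediate, and was 1.12 in Ershuizao enlarging. As a gene of that model it too was chosen by stage differences, so its r is a description only. Over deviations from group means that r was -0.03.

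For FKF, the nearest genes were Asa2G02559.1 (r of 0.82) and Asa5G02200.1 (r of 0.80), and the farthest were Asa6G00136.1 (r of -0.84) and Asa3G02136.1 (r of -0.81). The mean FPKM of Asa2G02559.1 was 4.28 in Yuanjiangyangsuan enlarging and 2.75 in Ershuizao before enlargement, the same 2 groups that were highest for FKF. That of Asa6G00136.1 was between 50.6 and 59.0 in these groups and in Yuanjiangyangsuan before enlargement, and between 82.7 and 88.8 in the 3 others. No name or role is given to these genes in the sources used here.

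Of the photoperiod pathway, 5 further genes are named with an ID in the study's text, all of which passed the filter. They are an ELF4-like gene, whose Arabidopsis counterpart is part of the evening complex of the clock, a CDF2-homologous gene, of the Dof repressors that GI and FKF1 target in Arabidopsis, 2 TGA4-like genes, of the basic leucine zipper factors, and an FT-like gene, of the family of the flowering signal, members of which control bulb formation in onion. In 4 of the 6 comparisons 1 of these 5 genes was called by limma, each time the CDF2-homologous gene. None was called for Yuanjiangyangsuan against Ershuizao before enlargement (0 at an unadjusted p under 0.05, and 1 called by limma voom on the fragments) or against Chalingzipisuan under enlarging growth (1 and 0, respectively). Before enlargement it was lower in Ershuizao than in Chalingzipisuan (0.33% of all genes were called in that direction) and lower in Yuanjiangyangsuan than in Chalingzipisuan (16.2%), and under enlarging growth it was higher in Ershuizao than in Chalingzipisuan (0.531%) and lower in Yuanjiangyangsuan than in Ershuizao (18.2%). A share of 1 in 5 is thus near the background in the comparisons with Yuanjiangyangsuan. The median difference of the 5 genes was 0.71 for Ershuizao minus Chalingzipisuan before enlargement and 0.88 for Yuanjiangyangsuan minus Ershuizao under enlarging growth, and lay between -0.64 and 0.62 in the other comparisons, while the median of all genes was between -0.10 and 0 in each.

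The CDF2-homologous gene, Asa8G01471.1, ran opposite to GI and FKF between Ershuizao and Chalingzipisuan before enlargement. Its FPKM values were 30.9, 30.8 and 24.7 in Chalingzipisuan and 16.2, 5.02 and 4.86 in Ershuizao before enlargement, a difference of -1.88 on the log2(FPKM + 0.5) scale (limma adjusted p = 0.0102). Every Chalingzipisuan library was above every Ershuizao library, but the call was lost with only the 6 libraries compared (limma adjusted p = 0.142), without Chalingzipisuan replicate 2 (0.05004), without Ershuizao replicate 2 (0.0616) and without Ershuizao replicate 3 (0.0676). In Yuanjiangyangsuan the mean was 10.7 ± 1.63 FPKM before enlargement, lower than in Chalingzipisuan by -1.39 (limma adjusted p = 0.00521, where 16.2% of genes were called as lower) and not called against Ershuizao (difference of 0.49, adjusted p = 0.299, where 13.4% of genes were called as higher). Without Ershuizao replicate 1, the highest of its group, that last difference was 1.03 and was called (limma adjusted p = 0.0029).

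Under enlarging growth the CDF2-homologous gene was at 35.9 ± 3.82 FPKM in Ershuizao, 11.6 ± 2.69 in Chalingzipisuan and 6.69 ± 1.36 in Yuanjiangyangsuan (mean ± SD, n = 3). It was lower in Yuanjiangyangsuan than in Ershuizao by -2.35 (limma adjusted p = 5.67e-05), where 18.2% of genes were called as lower and FKF was called as higher. Its difference for Yuanjiangyangsuan minus Chalingzipisuan was -0.74 and was not called (limma adjusted p = 0.121), where 16.9% of genes were called as lower. Without Ershuizao replicate 1 before enlargement that difference was called (limma adjusted p = 0.011). It was higher in Ershuizao than in Chalingzipisuan by 1.62 (limma adjusted p = 0.036), a call that was lost with only the 6 libraries compared (0.123), without Chalingzipisuan enlarging replicate 3 (0.0667) and without each of 9 other single libraries (up to 0.136). These were enlarging replicates 1 and 2 of Chalingzipisuan, 1, 2 and 3 of Ershuizao and 1 of Yuanjiangyangsuan, and replicate 2 of Chalingzipisuan and replicates 2 and 3 of Yuanjiangyangsuan before enlargement. Neither GI nor FKF was called in that comparison. Over the 18 libraries the r of the CDF2-homologous gene was -0.55 with GI and -0.69 with FKF, the 226th and the 54th lowest among 33680 genes. The stage differences that chose these genes enter that r, so it is a description only. Over deviations from group means the sign was the other way, with an r of 0.43 with GI and 0.35 with FKF.

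The other 4 genes varied more between individuals. The ELF4-like gene, Asa2G00681.1, was at 2.504 to 12.5 FPKM in Chalingzipisuan and 8.42 to 15.3 in Ershuizao before enlargement, a difference of 0.71 (95% interval -0.39 to 1.82, limma adjusted p = 0.689). The FT-like gene, Asa6G06199.1, was at 0.352 to 8.60 and 4.25 to 8.86 FPKM in the same groups (difference of 0.63, -0.81 to 2.07, limma adjusted p = 0.829), and its lowest value rested on 3 fragments. The TGA4-like gene Asa6G01159.1 was listed at 0 in 2 of 3 libraries before enlargement in both Chalingzipisuan and Yuanjiangyangsuan. Its differences for Yuanjiangyangsuan minus Ershuizao were not called (-0.83 before enlargement and 0.99 under enlarging growth, limma adjusted p = 0.147 and 0.081). The first was called without Ershuizao replicate 2 (adjusted p = 0.0492) and with limma voom on the fragments (0.0484), and the second with the replicate block (0.0385) and without Yuanjiangyangsuan enlarging replicate 2 (0.0145). The r of these 4 genes with GI lay between 0.23 and 0.44, and with FKF between 0.15 and 0.26.

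**Figure D4:**
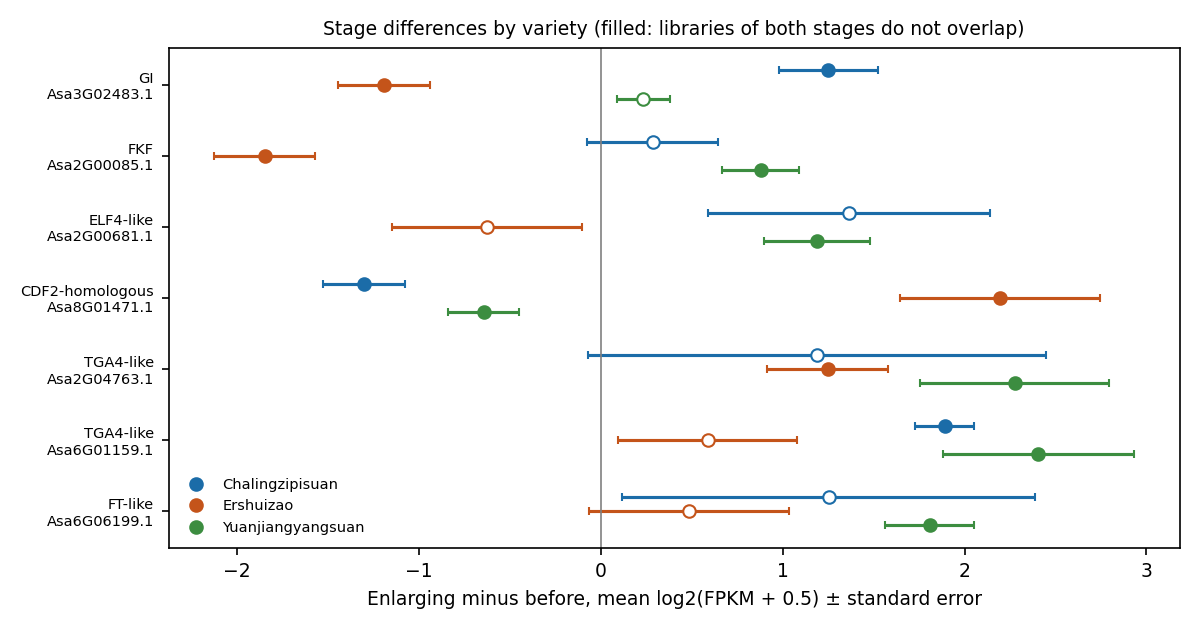
Difference between enlarging growth and before enlargement in mean log2(FPKM + 0.5), with its standard error, for both homologs and 5 other photoperiod genes in each variety (3 libraries per stage). Filled points are differences where the libraries of both stages did not overlap; in Ershuizao, GI and FKF lie at -1.19 and -1.85 and the CDF2-homologous gene at 2.20, while in Chalingzipisuan GI lies at 1.25 and the CDF2-homologous gene at -1.30.

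The CDF2-homologous gene, which the study also picked from the comparison of stages, was 4.12-fold higher in mean FPKM under enlarging growth in Ershuizao, and 2.49-fold and 1.60-fold lower in Chalingzipisuan and Yuanjiangyangsuan, each without overlap between the stages. The share of genes without overlap was 14.1% higher in Ershuizao, 13% lower in Chalingzipisuan and 24.7% lower in Yuanjiangyangsuan. In Ershuizao, 70 genes (0.208%) were higher there and lower in Chalingzipisuan without overlap, and 167 genes (0.496%) were higher there and lower in Yuanjiangyangsuan. The stages chose the CDF2-homologous gene, so these shares do not measure how unusual its pattern is.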

How the data were processed

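Per the labels and the paper, the authors used HISAT2 to align reads to the reference genome of garlic, and they deposited 1 FPKM value for each gene in each unpooled library. The counting program is not given in the sources used here. The members and lists were chosen with earlier results of these data known. The genes named were both homologs, the 5 other photoperiod genes that the study's text names with an ID, and the 2 genes with the highest and the 2 with the lowest Pearson's r for each homolog.

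FPKM values were whole multiples of a step for all 39933 genes above 0 in at least 2 libraries (largest distance from a whole fragment 0.00156, tolerance 0.003), which gave fragments and lengths; 94.3% of lengths were multiples of 3, as for coding length. Varieties were compared at each stage on log2(FPKM + 0.5) in R 4.3.3 (limma 3.58.1), with 6 group means, 18 libraries, 12 residual degrees of freedom and moderated variances (trend, robust), checked on simulated data. Replicates were individuals. The alternatives were pseudocounts of 0.1 and 1, no filter or a minimum of 1, median-ratio scaling, a replicate block, only the 6 libraries compared, no trend or robust estimation, each library left out, for the ratio no pseudocount, for the likeness Spearman's rho, deviations from group means and the loss of enlarging replicate 3 of Chalingzipisuan, and, chosen after seeing the data, limma voom on the recovered fragments. Python 3.11.15, numpy 2.4.6, pandas 2.3.3, scipy 1.17.1 and matplotlib 3.10.9 were used. Positions and sequences are not given because no genome was used here.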

Additional observations from a re-analysis of the deposited data

Results flagged for a closer look

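In 4 cases the libraries of the stages did not overlap in opposite directions in a pair of varieties. The difference was not tested in any of them, because the stages chose the genes. In the order below, 0.166%, 0.546%, 0.208% and 0.496% of genes had the same pattern, shares that do not measure how unusual it is. For the GI homolog, Asa3G02483.1, the stage difference (enlarging minus before, log2(FPKM + 0.5)) was 1.25 in Chalingzipisuan and -1.19 in Ershuizao, 2.44 apart. For the FKF homolog, Asa2G00085.1, it was 0.88 in Yuanjiangyangsuan and -1.85 in Ershuizao, 2.72 apart. For the CDF2-homologous Asa8G01471.1, it was 2.20 in Ershuizao, 3.50 above Chalingzipisuan (-1.30) and 2.84 above Yuanjiangyangsuan (-0.64).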

How the results depend on the processing

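No difference reversed past the threshold under any alternative, and all calls of GI held under all of them, with adjusted p from limma of at most 0.0232. Without 1 library, the difference of FKF before enlargement was 0.94 to 1.18 for Yuanjiangyangsuan minus Chalingzipisuan and -1.20 to -0.87 for Yuanjiangyangsuan minus Ershuizao, and the 5 lost calls are those given above. The other calls of FKF held, with differences of 1.76 to 2.66 for Ershuizao minus Chalingzipisuan before enlargement. The uncalled difference of FKF between these varieties under enlarging growth changed sign without 1 library (-0.38 to 0.14), as did that of GI for Yuanjiangyangsuan minus Chalingzipisuan (-0.28 to 0.13). The number of genes called for Ershuizao against Chalingzipisuan was 362 before enlargement and 282 under enlarging growth. It was 221 and 39 with only the 6 libraries compared, and 197 to 803 and 170 to 627 without 1 library, the highest of both without Chalingzipisuan enlarging replicate 3. The cause of these changes was not tested. Without a pseudocount, the log2 ratio of GI to FKF differed by -0.40 for Ershuizao minus Chalingzipisuan before enlargement and by -1.78 for Yuanjiangyangsuan minus Ershuizao under enlarging growth. The r of GI with FKF was 0.24 over deviations from group means, and none of the 8 nearest and farthest genes was kept there; 2 of 4 for each homolog were kept with Spearman's rho. Deviations of libraries that share a replicate number correlated at -0.569 to 0.389, and no pairing was assumed; with the replicate block, 280 and 217 genes were called for Ershuizao against Chalingzipisuan, and no call of GI or FKF changed (GI, 2.11, adjusted p = 0.000656 for these varieties before enlargement), while the TGA4-like Asa6G01159.1 was called for Yuanjiangyangsuan against Ershuizao under enlarging growth. Depth limits the precision of FKF, with 14 to 45 fragments per library in Chalingzipisuan and 21 to 40 in Ershuizao under enlarging growth.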
